A study of Mus musculus with 6 samples.

Results

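The genes described here carry adrenergic and muscarinic signals in the heart. There were 9 of them, chosen by name from 20121 deposited genes: Dbh, the enzyme that makes noradrenaline from dopamine; the adrenergic receptor genes Adrb1, Adra1a and Adra1b; the muscarinic receptor gene Chrm2; Gnas, the locus of the stimulatory G protein alpha subunit; the adenylyl cyclase genes Adcy5 and Adcy6; and Prkar1a, a regulatory subunit of protein kinase A. All 9 passed the filter on low counts, which left 14877 genes for testing. The RNA came from hearts of mice of mixed ICR and C57BL/6 background, taken on postnatal day 14. The 3 control pups carried the TRalphaAMI allele and no Cre. The 3 mutant pups were littermates that carried TRalphaAMI together with Myh6-Cre, whose promoter restricts the recombinase to cardiomyocytes, where it turns on a thyroid hormone receptor alpha that blocks the normal one. There was no group with Cre alone, and what Cre does by itself cannot be told apart from what the altered receptor does. Heart muscle cells are the only cells in which the receptor was altered by design, while the RNA came from all cells of the heart. The comparison asks which heart transcripts depend on thyroid hormone signalling in heart muscle cells.

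Noradrenaline from sympathetic nerves acts on beta receptors, which couple through the stimulatory G protein to adenylyl cyclase. The cAMP formed releases the catalytic subunits of protein kinase A from their regulatory subunits, and the kinase acts on calcium handling and contractile proteins to raise the rate and force of the beat. Alpha-1 receptors act through another G protein on phospholipase C, and acetylcholine from the vagus nerve acts through the muscarinic receptor of Chrm2 on inhibitory G proteins, which slow the cyclases and open a potassium channel. Thyroid hormone has long been known to change how strongly the heart responds to catecholamines.

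The libraries held 43314706 to 62095277 counts. Thra, which encodes the targeted receptor, stood at 66.8 to 81.7 CPM (counts scaled to a common library size, here with TMM factors) in control and 125 to 143 CPM in mutant hearts. These values cannot be split into the normal and the altered transcript, which makes them a weak check of the labels. All 13 heart muscle markers listed passed the filter, and 1 rose and 7 fell, against 18.1% and 19.5% of all genes tested. With library totals only, in place of TMM factors, 4 were higher and 4 lower, against 50.3% and 8.11% of all genes. The summed level of the 13 markers was 84856 to 94052 CPM in control and 45414 to 47783 CPM in mutant hearts. Most of that difference was Myh6, at 35132 to 38919 CPM in control and 3512 to 4321 CPM in mutant hearts, while Actn2, Mybpc3, Tnnt2, Ttn and Nkx2-5 did not pass the test. The atrial markers Myl7 and Sln were nearly absent, with 33 and 8 counts over the 3 control hearts and 22 and 3 counts over the 3 mutant hearts. Of the 10 atrial markers listed, 8 were tested, and 4 were higher and 1 lower (6 and 0 with library totals only). Their summed level was 129 to 137 CPM in control and 388 to 445 CPM in mutant hearts (Nppa alone stood at 294.8 to 354 CPM in mutant hearts). The levels below are therefore those of samples with little atrial muscle by Myl7 and Sln, although the labels name the heart as a whole.

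Promoter sequence is shown for 4 of these genes whose values differ in direction, as stretches that touch no annotated exon. RefSeq windows on GRCm38.p6 were at hand for 7 of the 9 genes, 16 windows in all, and each was taken as the 250 bases before a start. The motif AGGTCA, the core sequence that thyroid hormone receptors bind, was searched on both strands and lay in 0 of the 16 windows, against 14.0% of 32851 windows over all genes. The full cAMP response element TGACGTCA lay in 1 window, of Prkar1a, against 1.55% of all windows. Its shorter form TGACG, which the full element contains, lay in 8 windows of Adrb1, Dbh, Gnas and Prkar1a, against 17.8% of all windows. Windows of a gene can overlap: 2 of the Gnas windows share a hit, as do 2 of the Prkar1a windows, so the 8 windows are not 8 separate matches. A match is a run of letters only, and no match says only that the letters are not in these windows. In the lines below, capitals mark TGACG or TGACGTCA on either strand.
Adrb1, chr19:56721867-56722116, plus strand: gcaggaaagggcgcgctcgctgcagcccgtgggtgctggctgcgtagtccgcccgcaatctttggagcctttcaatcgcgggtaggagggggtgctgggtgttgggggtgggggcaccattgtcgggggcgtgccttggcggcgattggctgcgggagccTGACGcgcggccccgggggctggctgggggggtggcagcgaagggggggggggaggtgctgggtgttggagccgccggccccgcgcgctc
Adra1b, chr11:43901238-43901487, minus strand: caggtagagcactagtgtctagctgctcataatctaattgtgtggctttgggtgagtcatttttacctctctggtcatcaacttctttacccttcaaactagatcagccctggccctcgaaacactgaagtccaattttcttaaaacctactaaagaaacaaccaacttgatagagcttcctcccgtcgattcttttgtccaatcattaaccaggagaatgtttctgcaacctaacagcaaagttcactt
Adcy5, chr16:35154614-35154863, plus strand: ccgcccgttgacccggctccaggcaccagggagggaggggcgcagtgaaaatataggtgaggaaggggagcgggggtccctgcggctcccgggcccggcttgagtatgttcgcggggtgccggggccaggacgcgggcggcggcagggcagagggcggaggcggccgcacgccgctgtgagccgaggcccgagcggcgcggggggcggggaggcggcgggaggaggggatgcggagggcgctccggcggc
Prkar1a, chr11:109650699-109650920, plus strand: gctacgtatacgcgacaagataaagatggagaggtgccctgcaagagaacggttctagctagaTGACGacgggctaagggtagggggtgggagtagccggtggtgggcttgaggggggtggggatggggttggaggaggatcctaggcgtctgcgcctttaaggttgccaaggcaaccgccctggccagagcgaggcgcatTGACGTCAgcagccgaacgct
The Prkar1a line is the 222 bases of its window that lie before the next annotated exon. Its full element begins 49 bases before the start.

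In mutant hearts, 4 of the 9 genes were higher (Adcy5, Adcy6, Gnas and Prkar1a), 4 were lower (Dbh, Adra1a, Adra1b and Chrm2) and Adrb1 did not pass the test. The test was edgeR's quasi-likelihood F test with Benjamini-Hochberg adjustment over all genes and a threshold of 0.05. Over all genes tested, 37.5% passed it, 18.1% as higher and 19.5% as lower. The CPM of the groups did not overlap for 7 of the 9 genes, against 49.8% of all genes tested. The 9 genes were put together with results of these data known, so this count is a description. In a whole tissue, fewer cells of a type and less RNA per cell cannot be told apart.

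**Figure D1:**
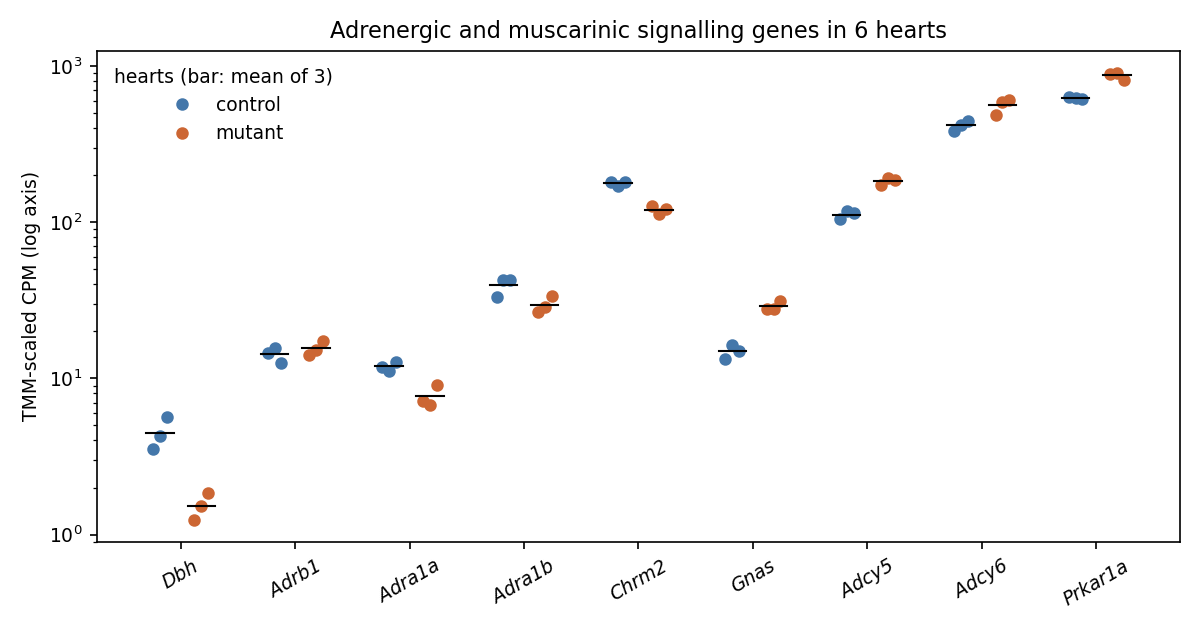
Level of each gene in each heart, as TMM-scaled CPM on a log axis, with control hearts in blue, mutant hearts in orange and bars at the mean of 3 hearts. Control and mutant hearts are apart for 7 of the 9 genes and overlap for Adrb1 and Adra1b.

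Dbh makes noradrenaline, the transmitter of the sympathetic nerves. The gene (ENSMUSG00000000889, mm10 chromosome 2, 27165233 to 27183200, plus strand) stood at 3.52, 4.30 and 5.67 CPM in control hearts and at 1.24, 1.52 and 1.84 CPM in mutant hearts. All mutant hearts lay below all control hearts. The fall was 2.93-fold, a log2 fold change of -1.55 ± 0.21 (SE, n = 3 hearts each) with an edgeR adjusted p of 3.07e-04. It rests on low counts, 659 over the control and 240 over the mutant hearts. By this test it was the largest change among the 9 genes in either direction.

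Th, the enzyme that starts catecholamine synthesis, had 1 count over the control and 1 over the mutant hearts, so Dbh was measured where Th was not detectable at this depth. The noradrenaline transporter gene Slc6a2 had 5 counts in control and 17 in mutant hearts. Among 18 markers of autonomic neurons, Npy had 3 and 1 counts, Nefl 9 and 16 and Prph 23 and 26, in control and mutant hearts. Of those 18, 7 could be tested, and 0 were higher and 2 were lower (28.6% in all, against 37.5% of all genes tested). These were Stmn2 and Ret, with log2 fold changes of -0.73 and -0.52. With library totals only, 1 of the 7 was higher and 1 lower, with a median of -0.17 against -0.45 with TMM. The summed level of the list was 29.7 to 30.5 CPM in control and 23.2 to 24.8 CPM in mutant hearts. Of 10 markers of pacemaker and conduction tissue, 9 were tested, and 3 were higher and 1 was lower (5 and 1 with library totals only). Their summed levels were 95.04 to 109 CPM in control and 96.9 to 116 CPM in mutant hearts. The lower one was Cntn2, a marker of the Purkinje network, which fell from 9.28 ± 2.44 to 1.09 ± 0.14 CPM (SD over 3 hearts a group), 8.52-fold. Gja5, also a marker of conduction tissue, did not pass the test (9.56 and 10.7 CPM), and the markers that rose were Tbx18, Cacna1d and Gjc1. The part of nerve or conduction cells in the fall of Dbh was not tested.

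Other genes that handle catecholamines moved in both directions. Besides Dbh 10 were listed and 6 tested, of which 2 rose and 1 fell, and their median log2 fold change was 0.019, against -0.00 over all genes tested. Ddc, which makes dopamine and serotonin from their precursors, rose 4.23-fold, from 17.6 ± 1.49 to 74.3 ± 10.9 CPM (SD over 3 hearts a group; edgeR adjusted p = 1.47e-06). Slc22a3, a transporter that takes catecholamines into non-neuronal cells, fell 4.27-fold from a low 1.70 CPM, and Maoa, a monoamine oxidase, rose 1.56-fold. Ddc and Dbh, neighbouring steps of noradrenaline synthesis, thus differed in direction.

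Adrb1, the main beta receptor of heart muscle (ENSMUSG00000035283, chromosome 19, 56722199 to 56733113, plus strand), stood at 14.6, 15.6 and 12.6 CPM in control hearts and at 14.2, 15.2 and 17.4 CPM in mutant hearts. The groups overlapped. The log2 fold change was 0.13 ± 0.10 (SE) with a 95% interval of -0.11 to 0.37 (edgeR adjusted p = 0.366). Changes of a size within that interval are compatible with these data. The call depends on the scaling between libraries: with library totals only, which shift the median of all genes by 0.28, Adrb1 was higher by 0.42 (adjusted p = 0.00985), and 50.3% of all genes were then higher and 8.11% lower. Adrb3 was near 0 CPM in all hearts and was not tested.

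Of the 3 alpha-1 receptor genes, Adra1a and Adra1b fell and Adra1d rose. Adra1a (ENSMUSG00000045875, chromosome 14, 66635251 to 66771168, plus strand) stood at 11.9, 11.2 and 12.7 CPM in control hearts and at 7.14, 6.77 and 9.11 CPM in mutant hearts, without overlap. Its log2 fold change was -0.63 ± 0.12 (SE; edgeR adjusted p = 0.00262).

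Adra1b (ENSMUSG00000050541, chromosome 11, 43774606 to 43901210, minus strand) stood at 33.4, 42.8 and 42.6 CPM in control hearts and at 26.5, 28.6 and 33.8 CPM in mutant hearts. The highest mutant heart passed the lowest control heart by a little. The log2 fold change was -0.42 ± 0.12 (SE; edgeR adjusted p = 0.0184). That call was lost without control replicate 2 (adjusted p = 0.0787), without mutant replicate 1 (0.0531) and without mutant replicate 2 (0.0719), and with library totals only the value was -0.13 (0.374). The third alpha-1 receptor gene, Adra1d, went the other way, from 2.39 ± 0.38 to 3.33 ± 0.24 CPM (SD over 3 hearts a group; log2 fold change 0.47, adjusted p = 0.0305). The rise of Adra1d rests on low counts, 353 over the control and 520 over the mutant hearts. It was weaker in 3 of the 14 alternatives run, though it kept its call with library totals only. Of the 9 adrenergic receptor genes, 7 were tested, and 1 rose and 2 fell (42.9% in all, against 37.5% of all genes tested). Their median log2 fold change was -0.40.

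Levels of different genes were compared per length, with the deposited RPKM values (counts divided by gene length and library total). These values imply a length of 2505 bases for Adrb1, 0.74 of its 3382 annotated exon bases, against 1.01 for Adra1b. The level and share of Adrb1 beside other genes depend on that length. In control hearts Adra1b gave 52.8% ± 3.90 of the RPKM summed over the 9 adrenergic receptor genes and Adrb1 gave 26.0% ± 3.12, and in mutant hearts they gave 45.5% ± 0.87 and 32.6% ± 0.12 (SD over 3 hearts a group). Adra1d rose from 5.68% ± 0.52 to 9.15% ± 0.39 of the sum, above the share of Adra1a in mutant hearts, 4.89% ± 0.40. These shares do not depend on scaling between libraries. They describe the transcripts only, and no test was run on them.

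**Figure D2:**
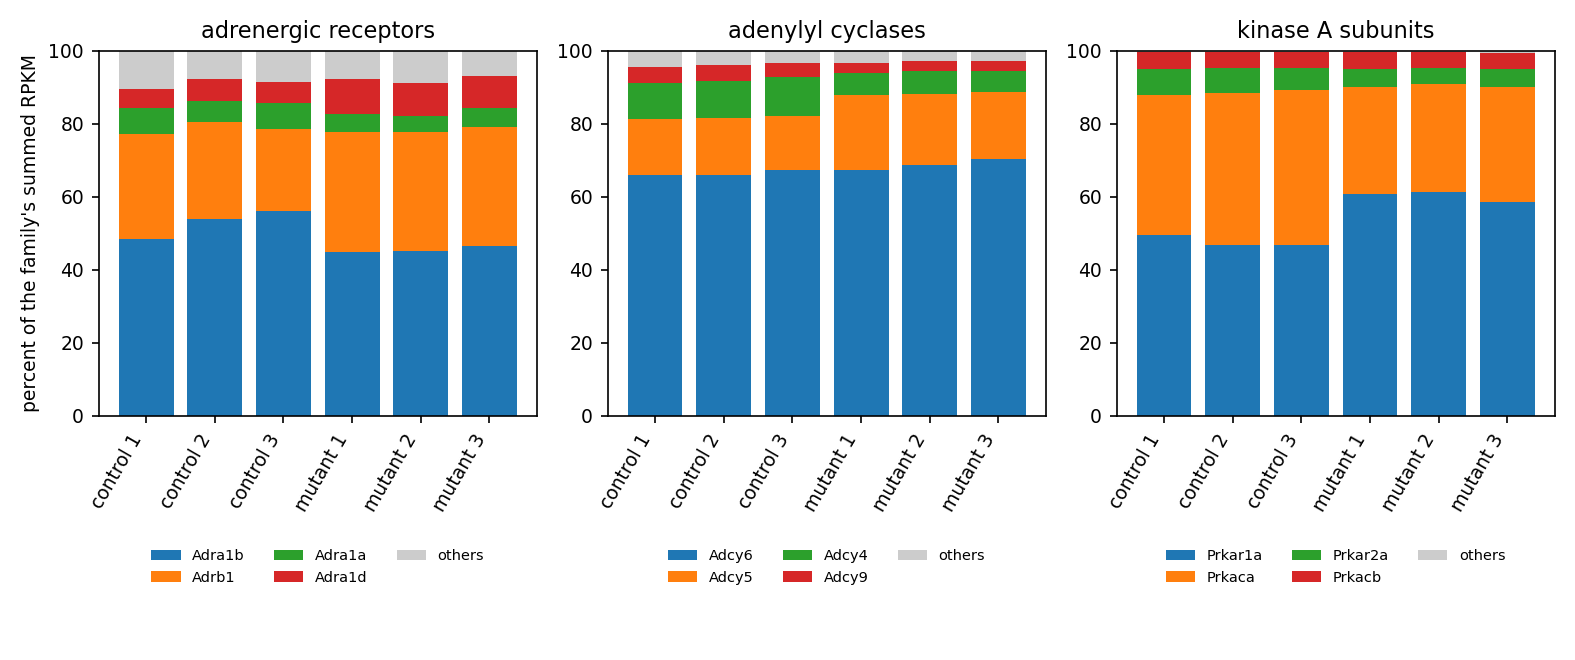
Share of each gene in the summed RPKM of its family, in percent, for the 6 hearts, for adrenergic receptors (9 genes), adenylyl cyclases (10 genes) and protein kinase A subunits (6 genes), with the smaller genes joined as others. The Adrb1 share is larger in every mutant heart (32.5% to 32.7%) than in any control heart (22.6% to 28.7%), and so is the Prkar1a share.

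Chrm2, the muscarinic receptor of heart muscle (ENSMUSG00000045613, chromosome 6, 36388084 to 36528414, plus strand), stood at 180.6, 169 and 181 CPM in control hearts and at 127, 112 and 122 CPM in mutant hearts. Each mutant heart was below each control heart. The log2 fold change was -0.56 ± 0.07 (SE; edgeR adjusted p = 1.42e-04). The gene model 9330158H04Rik on the opposite strand overlaps 2.35% of its exon bases and itself fell by 0.91 on the log2 scale. Chrm3 was low, at about 1 CPM, and did not pass the test, and of 5 muscarinic receptor genes 2 could be tested.

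Genes that act next to this receptor also moved. Kcnj3, a subunit of the potassium channel that acetylcholine opens, fell 8.16-fold, from 32.7 ± 2.91 to 3.99 ± 0.71 CPM (SD over 3 hearts a group; edgeR adjusted p = 3.49e-07), while its partner subunit Kcnj5 rose 1.42-fold, from 157 ± 15.7 to 223 ± 19.1 CPM. An antisense gene model shares 31.1% of the exon bases of Kcnj3. Rgs6, which ends the muscarinic signal to that channel, fell 1.83-fold and its relative Rgs7 fell 2.80-fold from 2.26 CPM. Gnao1, an inhibitory G protein alpha subunit, rose 1.63-fold and Gnai2, another, 1.26-fold. Bche, an esterase that can split acetylcholine, rose 1.70-fold.

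The balance between receptors was read as a ratio of RPKM within each heart, which no scaling between libraries can alter. Adrb1 to Chrm2 was 0.196, 0.224 and 0.169 in control hearts and 0.273, 0.329 and 0.348 in mutant hearts. The ratio was higher in every mutant heart, by 0.69 on the log2 scale. Adrb1 to Adra1b was higher by 0.55, without overlap, while Adra1b to Adra1a overlapped (0.23, exact permutation p = 0.3). With 3 hearts against 3 the two-sided exact permutation test cannot go below 0.1, which each ratio without overlap reached (0.117 after Benjamini-Hochberg over the 7 ratios computed), so none can pass a threshold of 0.05.

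**Figure D3:**
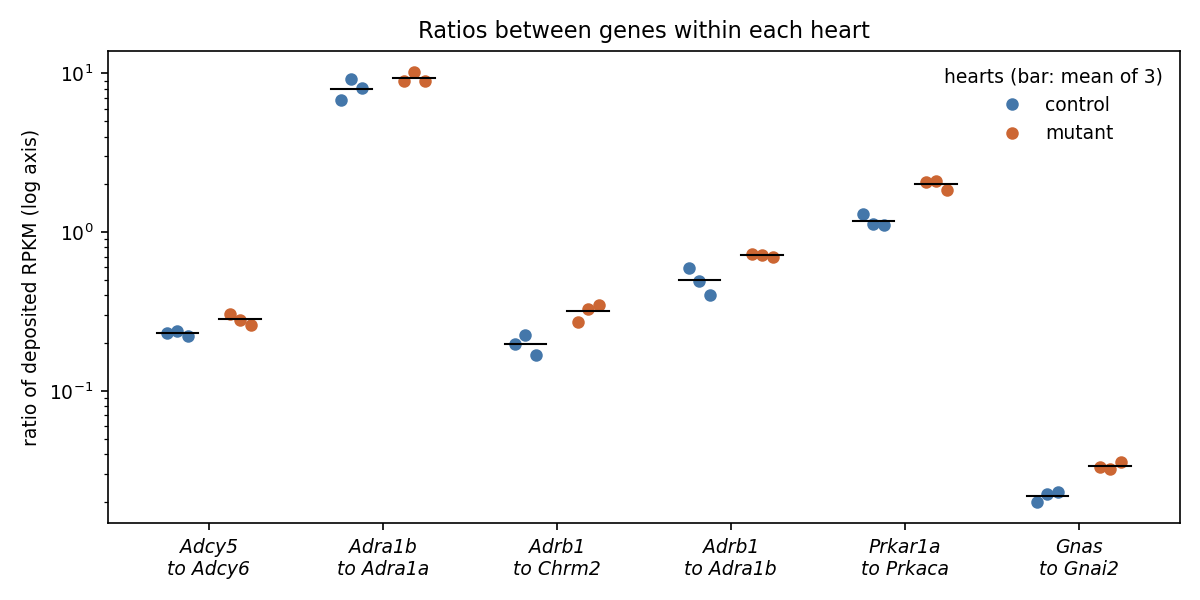
Ratio of the RPKM of paired genes within each heart, on a log axis, with control hearts in blue, mutant hearts in orange and bars at the mean of 3 hearts. The groups are apart for all 6 pairs drawn but Adra1b to Adra1a, and Prkar1a to Prkaca is 1.10 to 1.29 in control and 1.84 to 2.09 in mutant hearts.

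Gnas (ENSMUSG00000027523, chromosome 2, 174284320 to 174346744, plus strand) is an imprinted locus from which several promoters make the stimulatory alpha subunit and other proteins. It stood at 13.4, 16.2 and 15.1 CPM in control hearts and at 27.6, 27.9 and 31.4 CPM in mutant hearts. The groups were far apart, with a log2 fold change of 0.96 ± 0.09 (SE; edgeR adjusted p = 3.52e-05). These counts cannot be read as the level of the stimulatory subunit. The gene model Gm20721 lies on the opposite strand, and its exons hold 85.4% of the 1716 exon bases of Gnas-208, a transcript of that subunit, leaving 250 bases outside. For Gnas-206 and Gnas-207, which start close by, the shares were 84.7% and 80.4%. For transcripts from the upstream promoters the overlap was smaller, such as 32.4% of Gnas-201 and 0% of Gnas-210. Gm20721 itself had 6 counts over the control and 13 over the mutant hearts.

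Per length, Gnas was at 1.20 ± 0.12 RPKM in control and 2.84 ± 0.25 RPKM in mutant hearts, against 55.0 ± 2.95 and 84.2 ± 3.99 RPKM for Gnai2, the leading inhibitory subunit (SD over 3 hearts a group). The ratio of Gnas to Gnai2 was 0.0218 ± 0.0016 in control and 0.0337 ± 0.0019 in mutant hearts. The kit used does not mark strand, and the sources used here do not say how reads in exons of both genes were counted. The deposited RPKM of Gnas implies a length of 11250 bases, near the 11186 exon bases of all its transcripts together. Gnas-208 has 1716 exon bases. The RPKM of Gnas and its ratio to Gnai2 depend on the length used. The part of the overlap in this low level was not tested. Of the 13 alpha subunit genes, 3 rose and 2 fell (38.5% in all, near the 37.5% of all genes tested), with a median of 0.06. Gna11, which couples alpha-1 receptors to phospholipase C, fell by 0.26 with TMM but stood at 0.022 with library totals only. Of 13 tested beta and gamma subunit genes, 3 rose and 1 fell (30.8% in all). Gng2 rose 3.92-fold, from 9.96 ± 1.77 to 38.9 ± 2.32 CPM, and Gnb3 fell 2.16-fold (SD over 3 hearts a group). An antisense gene model shares 20.4% of the exon bases of Gng2.

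The cyclase genes of heart muscle both rose. Adcy6 (ENSMUSG00000022994, chromosome 15, 98589973 to 98610076, minus strand) stood at 386, 422 and 444 CPM in control hearts and at 486, 589 and 609.9 CPM in mutant hearts, without overlap. Its log2 fold change was 0.43 ± 0.09 (SE; edgeR adjusted p = 0.00579). An opposite-strand gene overlaps 8.92% of its exon bases.

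Adcy5 (ENSMUSG00000022840, chromosome 16, 35154877 to 35305738, plus strand) stood at 104, 117 and 114 CPM in control hearts and at 173, 193 and 186 CPM in mutant hearts. The lowest mutant heart was well above the highest control heart. The log2 fold change was 0.72 ± 0.07 (SE; edgeR adjusted p = 4.30e-05). The ratio of Adcy5 to Adcy6 was 0.232, 0.238 and 0.221 in control hearts and 0.306, 0.281 and 0.261 in mutant hearts, a log2 difference of 0.29.

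Together these genes made up most of the cyclase transcripts. Adcy6 gave 66.4% ± 0.79 of the RPKM summed over 10 cyclase genes in control and 68.8% ± 1.55 in mutant hearts, and Adcy5 gave 15.3% ± 0.44 and 19.4% ± 1.08 (SD over 3 hearts a group). Of the 8 cyclase genes tested, 2 rose and 2 fell (50% in all, against 37.5% of all genes tested). Those that fell were Adcy4, by 0.36, and Adcy9, by 0.32 on the log2 scale, and neither passed the test with library totals only. The share of Adcy4 went from 10.1% ± 0.37 to 6.08% ± 0.35. Its RPKM was 9.53 ± 0.89 in control and 9.04 ± 1.13 in mutant hearts. The RPKM summed over the 10 genes went from 94.1 ± 5.68 to 149 ± 17.2, so the share fell mainly as the sum grew. Adcy4 is known from endothelial cells, and 6 of 8 endothelial markers were lower too, with a median of -0.28, although with library totals only the median of these markers was 0.0064. The part of those cells in the fall of Adcy4 was not tested.

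Prkar1a (ENSMUSG00000020612, chromosome 11, 109649405 to 109669656, plus strand) stood at 638, 621 and 613 CPM in control hearts and at 894, 901 and 819 CPM in mutant hearts. No control heart came near the mutant hearts. The log2 fold change was 0.48 ± 0.06 (SE; edgeR adjusted p = 3.11e-04). Prkar1a was the most abundant of the 9 genes, at 130.1 ± 2.62 RPKM in control and 221 ± 8.97 RPKM in mutant hearts (SD over 3 hearts a group).

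With TMM, the main catalytic subunit and another regulatory subunit went the other way. Of 9 genes for subunits and inhibitors, 2 rose and 3 fell (55.6% in all, against 37.5% of all genes tested). The catalytic subunit gene Prkaca fell by 0.29 and the regulatory subunit gene Prkar2a by 0.36 on the log2 scale, and the minor Prkar1b was the other gene that rose. Prkacb, the other catalytic subunit gene listed, stood at 0.17 (edgeR adjusted p = 0.0550) and Prkar2b at 0.35 (0.05004). Neither passed the test. With library totals only, Prkaca (-0.0079) and Prkar2a (-0.08) did not pass the test. The inhibitor gene Pkig fell by 0.25, a direction that turned with library totals only (0.032). Prkar1a went from 47.7% ± 1.59 to 60.2% ± 1.54 of the RPKM summed over 6 subunit genes, while Prkaca went from 40.8% ± 2.17 to 30.2% ± 1.35. The RPKM of Prkaca itself was 111.4 ± 7.38 in control and 110.7 ± 3.63 in mutant hearts. Prkar1a to Prkaca was 1.29, 1.12 and 1.10 in control hearts and 2.06, 2.09 and 1.84 in mutant hearts. Summed over regulatory and over catalytic subunits, the ratio was 1.21 ± 0.10 in control and 1.89 ± 0.11 in mutant hearts (SD over 3 hearts a group).

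Per length, the order of the 9 genes in control hearts was Prkar1a, Adcy6 (62.5 RPKM), Chrm2 (26.4), Adcy5 (14.4), Adra1b (10.55), Adrb1 (5.16), Dbh (1.505), Adra1a (1.32) and Gnas (1.20). The last 3 overlapped between hearts, and the order among them is not resolved. In both groups the place of Gnas depends on the length of its whole locus, used for its RPKM. In mutant hearts Adcy5 (28.8 RPKM) came before Chrm2 (21.8), Gnas before Adra1a (1.04), and Dbh was last (0.626).

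The remaining genes of the pathway came from 16 lists of receptors, G proteins, enzymes and targets, together 172 genes. Besides the 9 genes above, 143 of them were tested, of which 29 were higher and 36 lower, 45.5% in all against 37.5% of all genes tested. Their median log2 fold change was -0.08. With library totals only, 71 of the 152 tested pathway genes, the 9 included, were higher and 18 lower, against 33 and 40 with TMM. Over all genes tested, 50.3% were then higher and 8.11% lower. Most of the lists held calls in both directions.

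**Figure D4:**
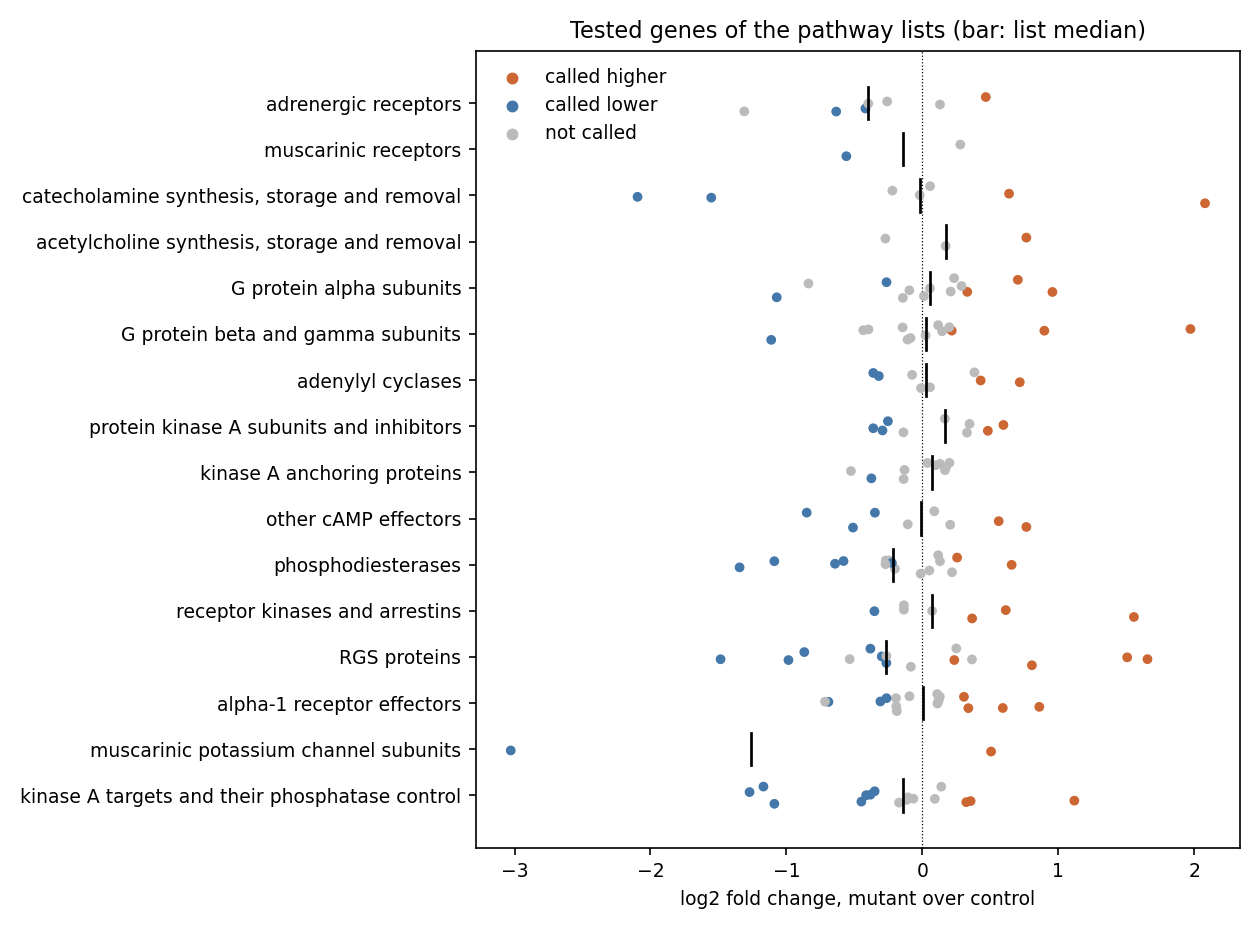
Log2 fold change of each tested gene of the 16 pathway lists, mutant over control, with 1 row per list, orange points for genes called higher, blue for genes called lower, grey for genes not called and a bar at the list's median. Points lie on both sides of 0 in most rows, and the point farthest to the left is Kcnj3, at -3.03.

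Genes that switch receptors off changed in both directions. Of 7 genes for receptor kinases and arrestins, 3 rose and 1 fell (57.1% in all, against 37.5% of all genes tested). Grk3, a receptor kinase, rose 2.94-fold, from 42.0 ± 9.84 to 124 ± 9.20 CPM, Arrb1, an arrestin, rose 1.53-fold and Grk5 1.29-fold, while Grk6 fell by 0.35 on the log2 scale, a call lost with library totals only (SD over 3 hearts a group). Grk2, the kinase best known from the failing heart, did not pass the test (log2 fold change -0.14, edgeR adjusted p = 0.126). Of 15 tested RGS genes, which shorten G protein signals, 4 rose and 6 fell (66.7% in all). With library totals only 6 were higher and 3 lower, against 50.3% and 8.11% of all genes tested. Rgs11 rose 3.15-fold and Rgs16 2.84-fold, both from levels near 1 CPM.

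Genes that break down or read cAMP went both ways as well. Of 16 tested phosphodiesterase genes, 2 rose and 5 fell (43.8% in all, against 37.5% of all genes tested), with a median of -0.21. But with library totals only 7 were higher and 2 lower, against 50.3% and 8.11% of all genes tested, and the median was 0.07. Pde7b fell 2.54-fold, from 34.1 ± 2.72 to 13.4 ± 1.22 CPM, Pde8b 2.13-fold and Pde7a 1.49-fold (a call lost with library totals only), whereas Pde1c rose 1.58-fold, from 162 ± 19.2 to 255 ± 24.1 CPM (SD over 3 hearts a group). The other gene that rose was Pde3a, the leading target of the inhibitor milrinone in heart (log2 fold change 0.26, edgeR adjusted p = 0.0134). Of 8 other cAMP effector genes, 2 rose and 3 fell (62.5% in all). Among the Popeye genes, whose proteins bind cAMP, Bves rose 1.70-fold and Popdc3 1.48-fold, while Popdc2, the most abundant, fell 1.42-fold from 618 ± 57.6 to 434 ± 30.3 CPM (SD over 3 hearts a group). Rapgef4, a cAMP-regulated exchange factor, fell 1.80-fold. Of 10 genes for anchoring proteins of the kinase, 0 rose and 1 fell (Akap7, by 0.37, a call lost with library totals only). On that scale 6 of these 10 genes were higher and 0 lower, against 50.3% and 8.11% of all genes tested.

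Targets of the kinase changed in both directions. Of 16 targets of the kinase and genes of their phosphatase control, 3 rose and 7 fell (62.5% in all), with a median of -0.14. But with library totals only 6 were higher and 3 lower, against 50.3% and 8.11% of all genes tested, and the median was 0.14. Hspb6, a small heat shock protein that the kinase phosphorylates, fell 2.25-fold, from 270.2 ± 28.6 to 120.2 ± 17.9 CPM (SD over 3 hearts a group). Ppp1r1a, an inhibitor of protein phosphatase activated by the kinase, rose 2.17-fold from 1.904 CPM. The targets Tnni3 and Ryr2 also fell, by 1.27 and 1.09 on the log2 scale. Of 16 genes acting after alpha-1 receptors, 4 rose and 3 fell (43.8% in all, against 37.5% of all genes tested). The protein kinase C genes Prkcd and Prkca rose 1.82-fold and 1.51-fold, Itpr1 rose 1.26-fold, and the phospholipase gene Plcb1 fell 1.61-fold.

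For each of the 9 genes, the genes with the nearest pattern were sought among 12018 named genes of at least 1 CPM, by the root mean square difference of log2 CPM over the 6 hearts after setting the control mean to 0. With so many genes close neighbours are found for any pattern. The nearest to Prkar1a was Ywhah (0.0131), to Adcy6 Pxn (0.0274), to Adcy5 Osbpl5 (0.0365) and to Gnas Smim5 (0.0418). For Chrm2 it was Clec4a1 (0.0181), for Adra1b Akr7a5 (0.0398), for Adra1a Cd83 (0.0607) and for Adrb1 H3f3a (0.0398). Dbh had no neighbour as close, with Dhrs7c at 0.101.

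**Figure D5:**
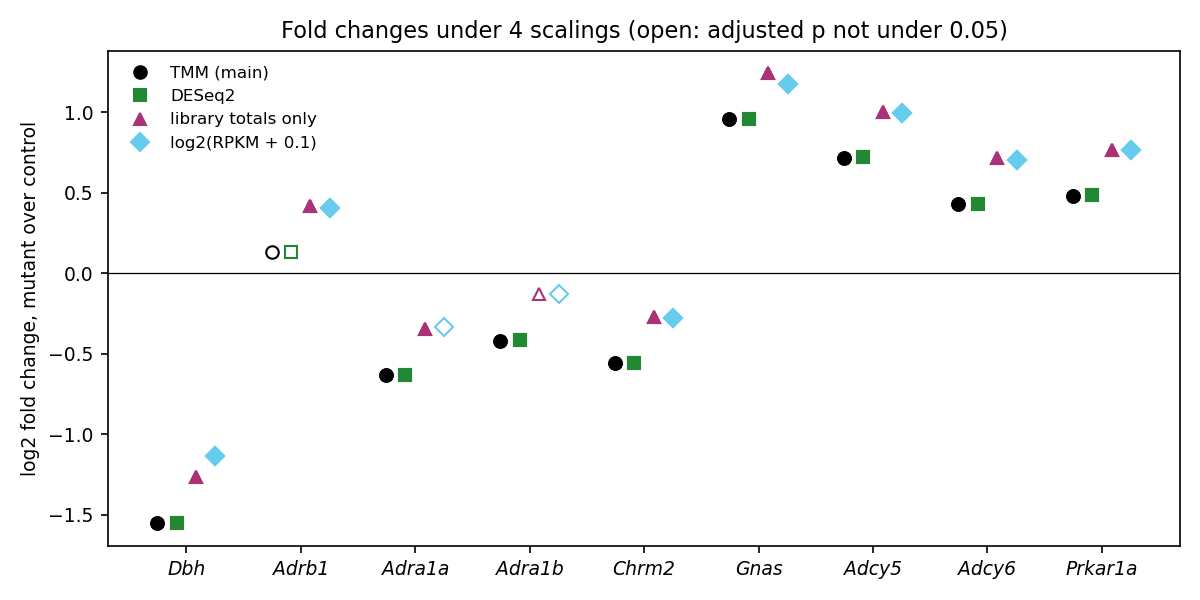
Log2 fold change of the 9 genes under 4 scalings, with filled symbols where the adjusted p was under 0.05 and open symbols elsewhere. Values with library totals only and on log2(RPKM + 0.1) lie above those with TMM for all 9 genes, Adrb1 is filled only there, and Adra1b is open there.

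The scaling moved all 9 genes upward together but turned none of their signs. With library totals only, 86.1% of all calls were higher, against 48.1% with TMM. On that scale Chrm2 stood at -0.27 (edgeR adjusted p = 0.00486), Dbh at -1.27 and Adra1a at -0.35 (0.0381), and all 3 still passed the test. Adcy5 then stood at 1.00 and Gnas at 1.24. Adcy5, Adcy6, Gnas, Prkar1a, Dbh and Chrm2 passed the test in all 14 alternatives run.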

How the data were processed

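Counts and RPKM values were deposited for each of 6 hearts. The deposited counts are unnormalized whole numbers with an Ensembl identifier each, and the RPKM values, as the authors made them, have no scaling for library composition. The submitters' processing notes name featureCounts 1.5.1, STAR 2.5.2b and cutadapt 1.9 and the build mm10, without their roles. Per the labels' protocols, libraries came from total RNA with a TruSeq kit that does not mark strand. Annotation release and strand setting: not given in the sources used here. Symbols, coordinates and exon overlaps came from GENCODE M21 by identifier.

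Counts were tested in R 4.3.3 with edgeR 4.0.16 (filterByExpr, TMM, quasi-likelihood F test on group, Benjamini-Hochberg over all genes, threshold 0.05), after a test on simulated data. SE is the log2 fold change divided by the square root of F. CPM uses TMM-scaled totals. Ratios and shares used RPKM. Nearest genes used log2(CPM + 0.5). Depth was 43314706 to 62095277 counts per library. Groups and replicate numbers came from titles, and p-values reflect only how these 6 hearts vary. Alternatives were DESeq2 1.42.0, its size factors, library totals, no filter, limma 3.58.1 on log2(RPKM + 0.1) and log2(RPKM + 1), a replicate block and leaving out each heart. The members and lists were chosen with earlier results of these data known. Named genes were the members, up to 4 called genes of each list by smallest adjusted p, and the nearest 3 genes of each member. Others, such as Cntn2, Grk2, Pde3a and Prkar1b, were named after their values were seen, and the shares were added then. Some results, 1 ratio among them, are not reported here.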

Additional observations from a re-analysis of the deposited data

How the results depend on the processing

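Of the 9 genes, Adcy5, Adcy6, Gnas, Prkar1a, Dbh and Chrm2 kept direction and call in all 14 alternatives. Library totals only, log2(RPKM + 0.1), log2(RPKM + 1) and log2(RPKM + 1) without a filter, given in this order, hold no composition scaling, and account for most other changes. Under these, all genes called higher numbered 7479, 7391, 7349 and 6916 and lower 1207, 1221, 1215 and 1170, and pathway genes called higher 71, 70, 69 and 67 and lower 18, 16, 16 and 14, against 33 and 40 with TMM. Adrb1 passed as higher at 0.42, 0.41, 0.35 and 0.35, and Adra1b lost its call at -0.13, -0.13, -0.12 and -0.12. Gna11 turned to 0.0218, 0.0203, 0.0193 and 0.0193 and Pkig to 0.0324, 0.0292, 0.0284 and 0.0284. Adra1a lost its call on log2(RPKM + 0.1) (-0.33) and on log2(RPKM + 1) without a filter (-0.19), where 2 members were lower. Leaving out 1 heart, Adra1b ranged from -0.53 to -0.34.

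Whether the replicate numbers pair the hearts cannot be settled with 3 hearts a group. Same-numbered hearts had correlations of deviations of 0.15, -0.05 and 0.10. Mutant hearts 1 and 3 correlated best with the control heart of their own number, and mutant heart 2 did not. For mutant heart 3 this was close to a tie, 0.096 with control heart 3 and 0.091 with control heart 2. With the replicate block 3090 genes were higher and 3229 lower, and no call among the 9 genes changed. The ratios kept their direction with counts in place of RPKM and without each heart in turn. Adra1b to Adra1a went from 0.23 to 0.11 without control replicate 1 and to 0.34 without control replicate 2, and Adcy5 to Adcy6 ranged from 0.24 to 0.35. Depth limits Dbh most among the 9 genes.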
